A study of Mus musculus with 4 samples.

Results

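Genomic imprinting was examined through 33 protein-coding genes that are imprinted in mouse, out of 22328 genes in each deposited table. They were taken by symbol, and all 33 were found once in the table of hippocampus and once in that of HT22 cells. By the parent whose allele is known to be expressed, 20 were classed as paternally and 11 as maternally expressed. Gnas and Grb10 were kept apart, since they use either allele depending on transcript or cell type. A class can be limited to some cells, as for Ube3a, which is maternally expressed in neurons. The classes were not checked in these libraries. They lie at 17 loci on 9 chromosomes, 14 of them on chromosome 7. The study compared the hippocampus of F1m-GCS offspring, whose dams ate a diet with choline chloride at 5 g/kg between embryonic day 9 and birth, with that of F1m-CON offspring, whose dams ate one with 1.1 g/kg. Offspring of both groups had a basal diet after birth and were tested for behaviour at 2 months. It also compared cultures of HT22, an immortalised line of mouse hippocampal neurons, given choline chloride for 48 h at 70 µM (HT22 SUP) or 5 µM (HT22 CON). Each of the 4 groups held 1 poly(A)-selected RNA library. The labels do not say how many animals a hippocampus library holds, and no difference below has a replicate check.

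An imprinted gene is transcribed mainly from the allele of 1 parent. The choice is set by DNA methylation laid down in the egg or sperm at imprinting control regions, and it is kept in body cells by the maintenance methyltransferase and by zinc finger proteins that recognise the methylated copy. Choline is a source of methyl groups through betaine and methionine, so this class of genes is a natural place to look in a study of choline supply. Many imprinted genes are strongly expressed in brain, where paternally expressed members such as Peg3 and Magel2 are known for roles in maternal care, feeding and hypothalamic function. The reads here are not separated by allele, so the values are totals of both alleles and do not show which one was transcribed.

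The start sites of 4 genes described below are printed here because methylation acts at CpG sites near such starts. Methylation was not measured in these libraries. In hippocampus Zim1 and Mkrn3 passed the rule used below for a difference, and Peg3 and Ube3a fell short of it. The sequences are RefSeq windows of 300 bases, from 250 before to 50 after the start, in the GRCm38.p6 assembly, 5′ to 3′ on the strand of the gene, with every CpG in capitals. Peg3 lies on the minus strand at chr7:6730370-6730669, Zim1 on the minus strand at chr7:6696383-6696682, Ube3a on the plus strand at chr7:59228500-59228799 and Mkrn3 on the minus strand at chr7:62420104-62420403.
Peg3: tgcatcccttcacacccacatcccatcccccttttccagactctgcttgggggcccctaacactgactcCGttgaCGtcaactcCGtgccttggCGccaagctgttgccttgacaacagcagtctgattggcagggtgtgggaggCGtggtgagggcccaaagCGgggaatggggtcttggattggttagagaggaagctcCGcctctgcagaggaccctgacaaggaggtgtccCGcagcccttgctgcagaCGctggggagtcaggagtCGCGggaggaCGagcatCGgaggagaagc
Zim1: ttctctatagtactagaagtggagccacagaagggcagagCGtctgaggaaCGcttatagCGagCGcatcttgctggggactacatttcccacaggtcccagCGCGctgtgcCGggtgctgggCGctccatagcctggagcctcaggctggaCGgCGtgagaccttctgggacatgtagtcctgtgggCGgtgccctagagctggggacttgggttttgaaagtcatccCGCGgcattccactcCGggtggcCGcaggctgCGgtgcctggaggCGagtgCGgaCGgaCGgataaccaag
Ube3a: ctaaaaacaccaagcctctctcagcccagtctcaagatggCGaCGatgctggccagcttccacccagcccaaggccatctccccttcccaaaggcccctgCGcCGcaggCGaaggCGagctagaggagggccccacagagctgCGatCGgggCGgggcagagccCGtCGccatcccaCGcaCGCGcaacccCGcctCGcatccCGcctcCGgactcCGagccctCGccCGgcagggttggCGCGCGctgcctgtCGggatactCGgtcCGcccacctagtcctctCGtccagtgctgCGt
Mkrn3: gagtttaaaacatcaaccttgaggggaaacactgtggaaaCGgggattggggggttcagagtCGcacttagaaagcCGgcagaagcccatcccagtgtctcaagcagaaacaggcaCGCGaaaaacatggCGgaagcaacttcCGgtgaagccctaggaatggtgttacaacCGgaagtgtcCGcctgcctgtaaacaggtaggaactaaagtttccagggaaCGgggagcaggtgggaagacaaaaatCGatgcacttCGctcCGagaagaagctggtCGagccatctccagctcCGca
They hold 13 CpGs in Peg3, 20 in Zim1, 29 in Ube3a and 15 in Mkrn3. The window of Usp29, which is read in the opposite direction, shares 263 bases with that of Peg3. By RefSeq these neighbours thus start 164 bases apart from 1 stretch of DNA. The deposited data list Usp29 further off, with a start 230.7 kb from that of Peg3, and the plot of the region below uses that listed start.

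RefSeq windows were at hand for 27 of the 33 genes, 38 windows in all, since some genes have several starts. Their median was 16.5 CpGs per window, with a range of 2 to 48, against a median of 7 over all 32851 windows. All windows cover 27025 genes, which were not matched to the imprinted genes by gene type or level of expression. The hexamer TGCCGC, the letters that ZFP57 reads when methylated, was searched on both strands and occurred in 10 of the 38 windows, or 26.3%, against 11.6% of all windows. These 10 windows belong to 9 genes, namely Mcts2, Nnat, Mest, Copg2, Nap1l5, Zim1, Snrpn, Plagl1 and Grb10. Overlapping windows of Mest were counted apart. The hexamer itself holds a CpG, and its share was not adjusted for the higher CpG count of the imprinted genes' windows. AAGATGGC, a core of the sites of YY1, was searched in the same way and occurred in the Ube3a window, or 2.63% of the windows, against 2.75% of all windows. A match of letters is a description and does not show binding.

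Reads counted in genes numbered 30265820 for F1m-GCS, 31175015 for F1m-CON, 13192007 for HT22 SUP and 18305096 for HT22 CON, or 63.1% to 79.4% of the uniquely mapped reads. The 33 genes took 0.375% of the reads in genes in F1m-GCS, 0.360% in F1m-CON, 0.0893% in HT22 SUP and 0.0868% in HT22 CON. In hippocampus the highest levels per length were those of Nnat, which encodes a small membrane proteolipid of developing neurons, with 727 RPKM (reads per kilobase of coding length and per 1000000 mapped reads) in F1m-GCS and 683 RPKM in F1m-CON. Nap1l5, a nucleosome assembly protein-like gene, followed with 536 and 522 RPKM in the same order. Snrpn, which encodes a neuronal spliceosome protein, had 391 RPKM in F1m-GCS and 428 RPKM in F1m-CON. Blcap had 377 and 354 RPKM, and Ndn, a growth suppressor of neurons that have left the cell cycle, had 228 and 239 RPKM. In these 5 genes and most others the hippocampus libraries lay close together, as the plot of levels by library shows.

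**Figure D1:**
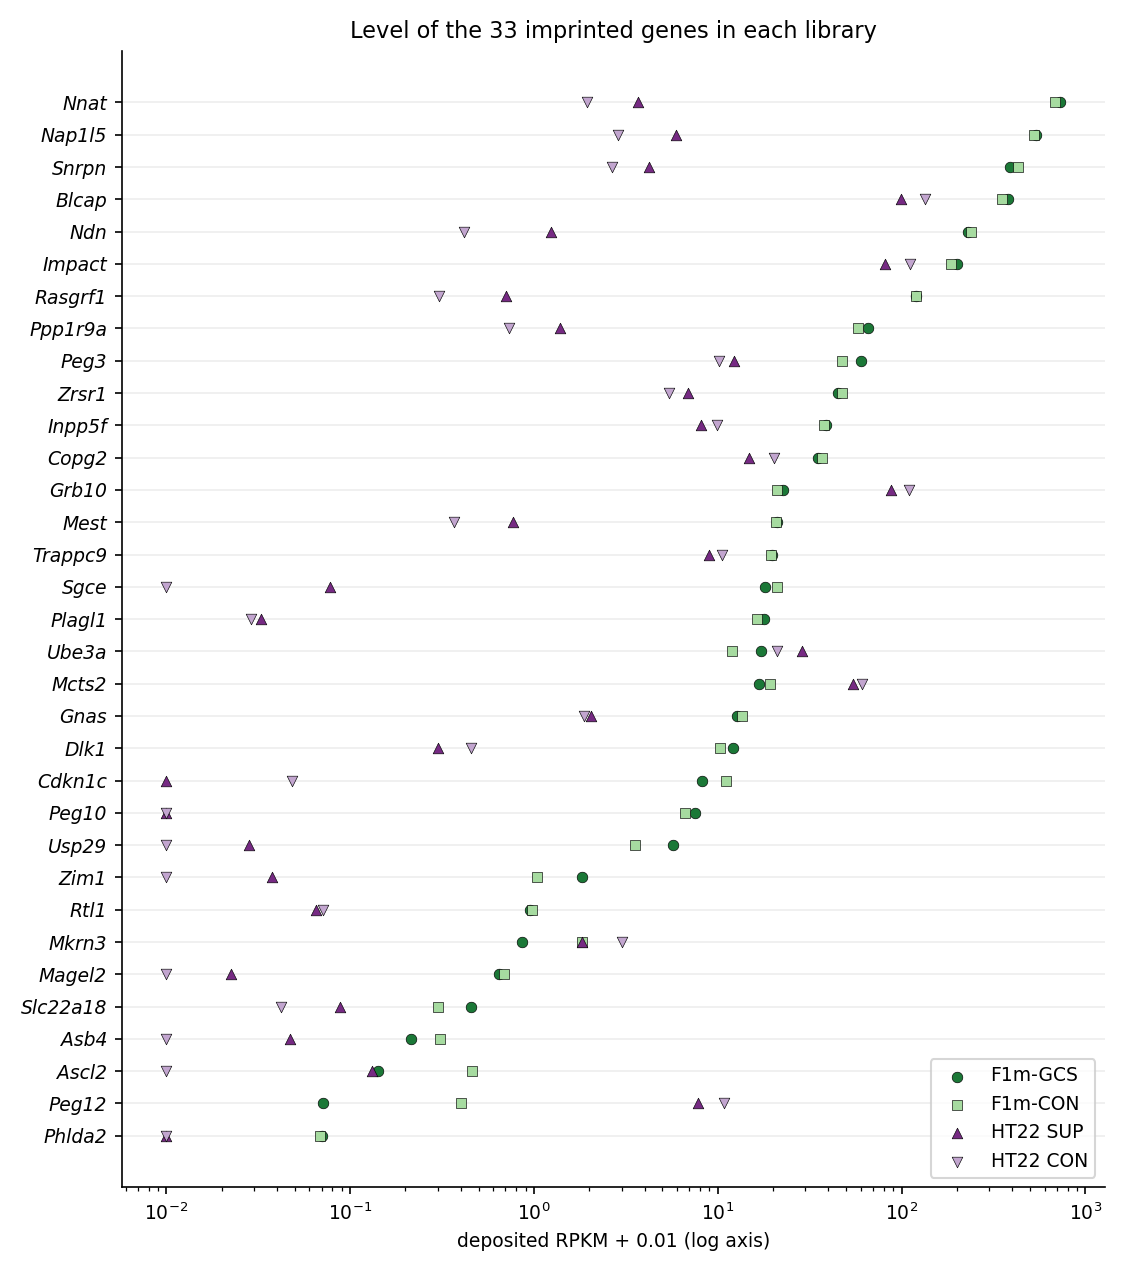
Deposited RPKM of the 33 imprinted genes in the 4 libraries, on a log axis after adding 0.01, with 1 point per library and genes ordered by F1m-GCS. The hippocampus points of a gene lie close together over most of the range, while in HT22 cells Snrpn, Nap1l5, Ndn and Rasgrf1 lie far to the left of their hippocampus points and Grb10 and Peg12 to the right.

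With 50 or more reads in 1 of the 2 libraries, 28 of the 33 genes could be measured in hippocampus, and all 28 passed that minimum in each library. A gene was called higher or lower when it differed by at least 1.5-fold (0.585 on the log2 scale) and the 95% counting interval of the log2 ratio, F1m-GCS over F1m-CON, excluded 0. Such an interval covers counting error and not the variation between animals or cultures. By this rule Usp29 and Zim1 were higher and Mkrn3 was lower, and 25 genes were not beyond it. The rule took 1.8% of all 13392 measured genes as higher and 0.904% as lower. At 2-fold 0 imprinted genes were higher and Mkrn3 was lower, against 0.224% of all measured genes higher and 0.172% lower. With the whole interval beyond 1.5-fold the outcome was the same 0 and 1, against 0.269% and 0.0971%. The median log2 ratio of the 28 genes was 0.05, against 0.00 over all measured genes, and 18 of the 28 lay within 0.2 of 0, against 75.1% of all measured genes. Paternally expressed genes had 1 higher and 1 lower of 19, with a median of 0.05, and maternally expressed genes had 1 higher and 0 lower of 7, with a median of 0.11. Because these are bulk tissue libraries, fewer cells of a type and less RNA per cell cannot be told apart.

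**Figure D2:**
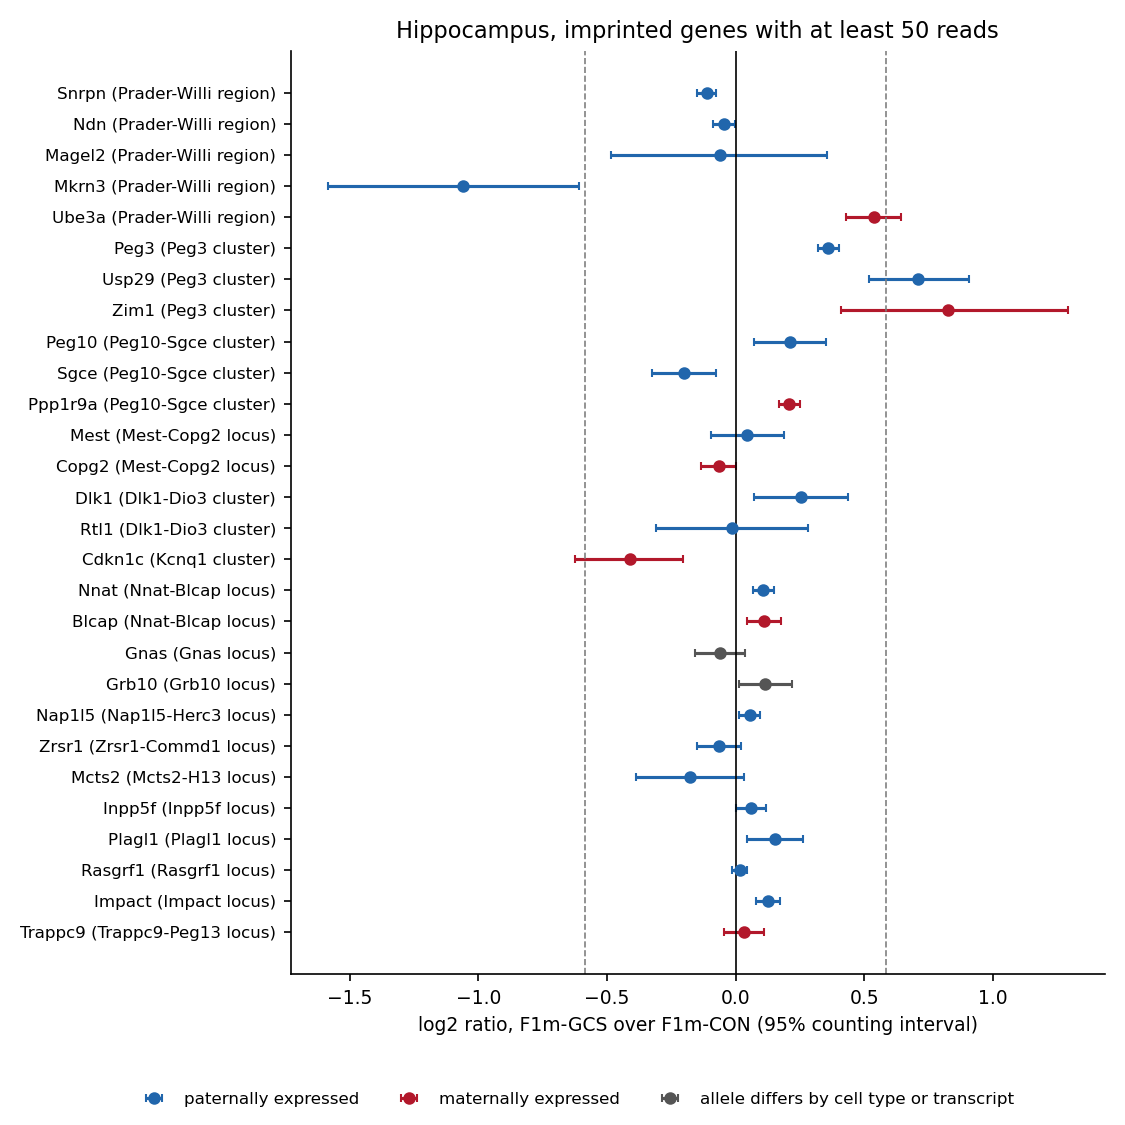
Log2 ratio of F1m-GCS over F1m-CON for the 28 imprinted genes with at least 50 reads, with 95% counting intervals, grouped by locus and coloured by expressed allele; dashed lines mark 1.5-fold. Usp29 and Zim1 lie right of the upper line and Mkrn3 left of the lower one, and most other genes lie close to 0.

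The 3 genes of the Peg3 cluster all lay above 0 in hippocampus. Peg3 encodes a large zinc finger protein that binds DNA, and in the deposited table it spans chr7:6703892-6730421. It had 10799 reads in F1m-GCS and 8744 in F1m-CON, or 59.8 and 47.2 RPKM. Its log2 ratio was 0.36 (0.32 to 0.40), short of 1.5-fold, at percentile 94.3 of measured genes. Usp29, a gene of the ubiquitin-specific protease family listed at chr7:6961160-6963769, had 569 reads in F1m-GCS and 361 in F1m-CON, with a log2 ratio of 0.71 (0.52 to 0.90). Zim1, a zinc finger gene that is expressed from the maternal allele, had 121 reads in F1m-GCS and 70 in F1m-CON, with 0.83 (0.41 to 1.29). Zim1 is the neighbour known to be expressed from the opposite parental allele, and it lay on the same side of 0 as Peg3 and Usp29. The reads do not show which allele was transcribed here. Ratios also varied with coding length: split into 10 groups by length, the longest measured genes had a median of 0.11 and the shortest -0.09. With the medians of genes of like length and GC content subtracted, a step called the correction below, the log2 ratios were 0.25 for Peg3, 0.53 for Usp29, which is then short of 1.5-fold, and 0.69 for Zim1.

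The genes on either side of the cluster were taken by position, 300 kb beyond its ends, a choice made after values were seen. Of them 7 were measured, and 0 were counted as higher or lower, against 1.8% higher and 0.904% lower of all measured genes. With 7 genes, a count of 0 is close to those shares. Their median was 0.05, and the range was -0.16 for Zfp954 to 0.33 for Zfp78, with an interval of -0.11 to 0.80 for the last. Of these 7 neighbours 6 encode zinc finger proteins, as Peg3 and Zim1 do.

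**Figure D3:**
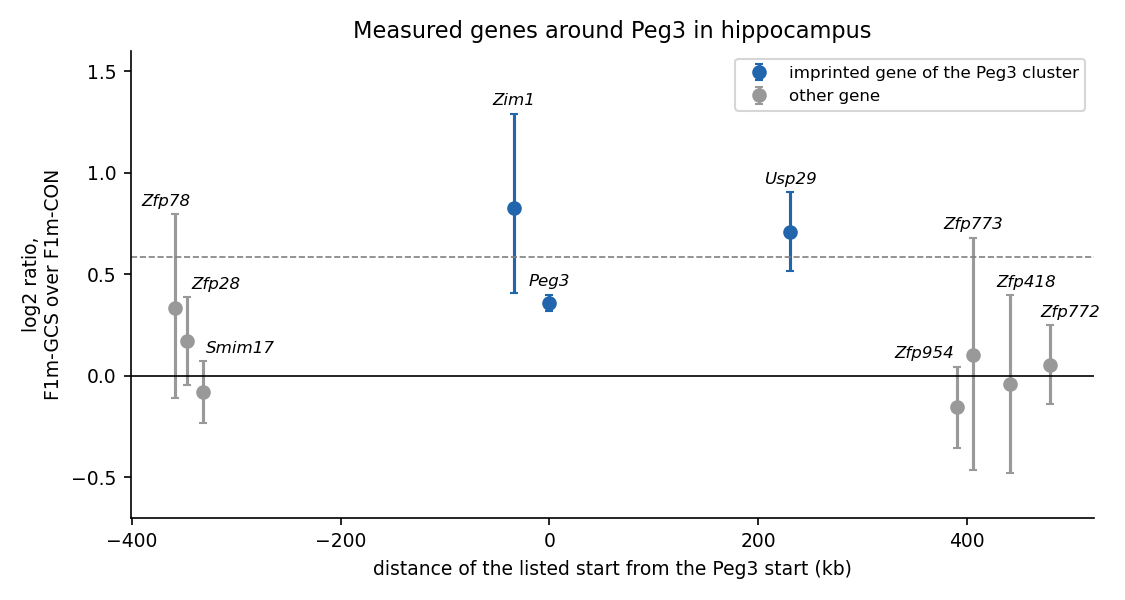
Log2 ratio of F1m-GCS over F1m-CON, with 95% counting intervals, for each measured gene around Peg3 against the distance of its listed start from that of Peg3 in kb; the dashed line marks 1.5-fold. Zim1, Peg3 and Usp29 have intervals above 0, and the intervals of the 7 genes outside the cluster all include 0. Interval width follows read depth. Zfp78, with 94 reads in F1m-GCS and 77 in F1m-CON, had a log2 ratio of 0.33, close to the 0.36 of Peg3.

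The genes of the Prader-Willi region on chromosome 7 differed among themselves. Mkrn3, which encodes a ring finger protein known in humans as a brake on puberty, spans chr7:62417593-62420139. It had 53 reads in F1m-GCS and 117 in F1m-CON, or 0.847 and 1.82 RPKM. The log2 ratio was -1.06 (-1.58 to -0.61), at percentile 0.157, and -1.02 after the correction. The measured neighbours of Mkrn3 had log2 ratios close to 0. Ndn, whose start lies 71.9 kb from that of Mkrn3, had 8554 reads in F1m-GCS and 9168 in F1m-CON, with a log2 ratio of -0.05 (-0.09 to 0.00). Magel2, a MAGE-family gene 43.2 kb from Mkrn3, had 94 and 102 reads in the same order and -0.06 (-0.48 to 0.35). Snrpn had 10823 reads in F1m-GCS and 12150 in F1m-CON, with -0.11 (-0.15 to -0.08). Snurf, which shares its transcript with Snrpn, was listed at 0 reads in all 4 libraries, so the counting gave the reads of that transcript to 1 of the pair at most. Peg12, on the far side of Mkrn3, had 2 and 13 reads and was below the minimum.

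Ube3a encodes a ubiquitin ligase, is expressed from the maternal allele in neurons and is lost in Angelman syndrome in humans. It spans chr7:59228752-59306727 and had 1714 reads in F1m-GCS and 1227 in F1m-CON. Its log2 ratio was 0.54 (0.43 to 0.64), just under 1.5-fold, at percentile 97.7, and 0.36 (0.25 to 0.47) after the correction. In neurons the paternal chromosome carries a long antisense transcript across Ube3a. The counting is not stated to use strand, so reads of the antisense transcript cannot be told apart from those of the gene.

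Peg10, which derives from a retrotransposon and is needed for the placenta, and Sgce, which encodes epsilon-sarcoglycan, are read in opposite directions from starts 102 bases apart, and both are paternally expressed. Peg10 had 872 reads in F1m-GCS and 782 in F1m-CON, with a log2 ratio of 0.21 (0.07 to 0.35). Sgce had 982 reads in F1m-GCS and 1172 in F1m-CON, with -0.20 (-0.32 to -0.08). The intervals of this pair did not overlap, though neither gene reached 1.5-fold, and after the correction the values were 0.16 and -0.19. Ppp1r9a, a neuronal actin-binding scaffold of the same cluster, had 9779 reads in F1m-GCS and 8789 in F1m-CON, with 0.21 (0.17 to 0.25). Asb4, also in that cluster, had 10 and 15 reads and was below the minimum.

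Growth regulators gave values on each side of 0. Cdkn1c, a maternally expressed inhibitor of cyclin-dependent kinases, had 328 reads in F1m-GCS and 454 in F1m-CON. Its log2 ratio was -0.41 (-0.62 to -0.21), the next lowest after Mkrn3. The other genes of the Kcnq1 cluster, Phlda2, Slc22a18 and Ascl2, had 1 to 21 reads and were below the minimum. Dlk1, a Notch-related growth regulator, had 537 reads in F1m-GCS and 468 in F1m-CON, with 0.25 (0.07 to 0.43). Rtl1, a retrotransposon-derived gene of the same cluster, had 189 and 198 reads in the same order and -0.01 (-0.31 to 0.28). Plagl1, a zinc finger regulator of a network of imprinted genes, had 1443 reads in F1m-GCS and 1348 in F1m-CON, with 0.15 (0.04 to 0.26). Grb10, an adaptor that dampens insulin signalling, had 1548 and 1484 reads and 0.11 (0.01 to 0.22).

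The remaining genes measured in hippocampus had log2 ratios between -0.18 for Mcts2 and 0.13 for Impact, which encodes an inhibitor of the GCN2 stress kinase. Mcts2 had 349 reads in F1m-GCS and 410 in F1m-CON, and its interval of -0.39 to 0.03 included 0. Rasgrf1, a synaptic exchange factor for Ras, had 17313 reads in F1m-GCS and 17792 in F1m-CON, with 0.01 (-0.02 to 0.05), or -0.06 after the correction. Several of these genes overlap another listed gene, so their counts are less certain. Nnat lies inside Blcap, Nap1l5 inside Herc3 and Zrsr1 inside Commd1, each on the opposite strand, Mest overlaps Copg2 at its end, and Mcts2 lies inside H13 on the same strand. Mcts2 and Zrsr1 are also close copies of Mcts1 and Zrsr2, between which reads could be split.

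In HT22 cells most imprinted genes stood at a small part of their hippocampus level. Of 29 genes that reached 50 reads in any of the 4 libraries, 15 had a mean CPM (counts per 1000000 reads in genes) in hippocampus that was 20 times that in HT22 cells or more, a property of 20.2% of all such genes. Of the genes measured in hippocampus 7 had at most 2 reads in each HT22 library, namely Plagl1, Cdkn1c, Peg10, Sgce, Usp29, Zim1 and Magel2. Peg10 had 0 reads in each, which allows up to 0.227 CPM in HT22 SUP and 0.164 CPM in HT22 CON. Of the same 29 genes 5 were higher in HT22 cells than in hippocampus, against 50.1% of all such genes. Peg12 had 0.0613 and 0.389 RPKM in the hippocampus of F1m-GCS and F1m-CON, and 7.81 and 10.8 RPKM in HT22 SUP and HT22 CON. Grb10 had 22.6 and 21.1 RPKM in hippocampus, and 88.0 and 109 RPKM in HT22 cells, in the same order. The others were Mkrn3, Mcts2 and Ube3a.

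Between the HT22 cultures, 17 of the 33 genes could be measured, and 5 of them were higher in HT22 SUP and 0 lower. The rule took 5.13% of all 10854 measured genes as higher and 2.89% as lower. The median log2 ratio of the 17 genes, HT22 SUP over HT22 CON, was 0.06, against -0.05 over all measured genes. By class, 3 of 10 paternally and 2 of 5 maternally expressed genes were higher, and allele use in HT22 cells was not measured. The 5 were Rasgrf1, Nap1l5, Ppp1r9a, Snrpn and Ube3a. The first 3 of these were also higher at 2-fold, against 2.22% of all measured genes, and with the whole interval beyond 1.5-fold, against 3.03%. By these stricter rules 0 were lower, against 0.525% and 0.433%. Of these, Rasgrf1, Nap1l5 and Snrpn reached 50 reads in HT22 SUP but not in HT22 CON, so their place among the measured genes depended on the library in which they were high, and the count of 5 supports nothing by itself.

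Rasgrf1, Nap1l5, Ppp1r9a and Snrpn are genes of high hippocampus level. Rasgrf1 had 55 reads in HT22 SUP and 28 in HT22 CON, with a log2 ratio of 1.39 (0.78 to 2.17). Nap1l5 had 58 and 34 reads in the same order and 1.20 (0.62 to 1.91). Ppp1r9a had 112 reads in HT22 SUP and 70 in HT22 CON, with 1.14 (0.72 to 1.61), and Snrpn had 64 and 48 reads and 0.87 (0.34 to 1.47). All 4 lay in the class with 20 times more CPM in hippocampus. In that class 71.1% of the 298 measured genes were higher in HT22 SUP, and the median log2 ratio was 1.07. The class holds 4604 genes in all. Genes this low in HT22 cells can pass the minimum through the library in which they are high. That choice may raise the share and the median, so they are no unbiased background for the 4 genes. As a percent of the mean hippocampus level in CPM, Rasgrf1 stood at 0.730% in HT22 SUP and 0.268% in HT22 CON, Nap1l5 at 1.40% and 0.591%, Snrpn at 1.30% and 0.702% and Ppp1r9a at 2.81% and 1.26%. In 644 genes that had 50 CPM or more in hippocampus and less than 1/100 of it in HT22 cells, HT22 SUP held 0.801% of the summed hippocampus level and HT22 CON 0.336%. The part of this shared shift in the ratios of the 4 genes was not tested. Without the class, 1 of 13 imprinted genes was higher and 0 lower, against 3.27% of 10556 genes higher and 2.92% lower.

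Below the minimum, other brain genes of the set had few reads in HT22 cells. Ndn had 25 reads in HT22 SUP and 10 in HT22 CON, or 0.657% and 0.189% of its hippocampus level. Nnat had 30 and 19 reads in the same order, or 0.655% and 0.299%, and Mest, a hydrolase gene tied to growth and maternal care, had 16 and 9 reads. Ndn, Nnat and Mest had more reads in HT22 SUP although that library is the shallower one. Others below the minimum went the other way in reads. Dlk1 had 7 reads in HT22 SUP and 13 in HT22 CON, or 0.531 and 0.710 CPM. Rtl1 had 6 and 8 reads in the same order, but 0.455 and 0.437 CPM. Scaled to depth, Rtl1 thus did not go the other way. The rest below the minimum had at most 2 reads in each HT22 library.

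**Figure D4:**
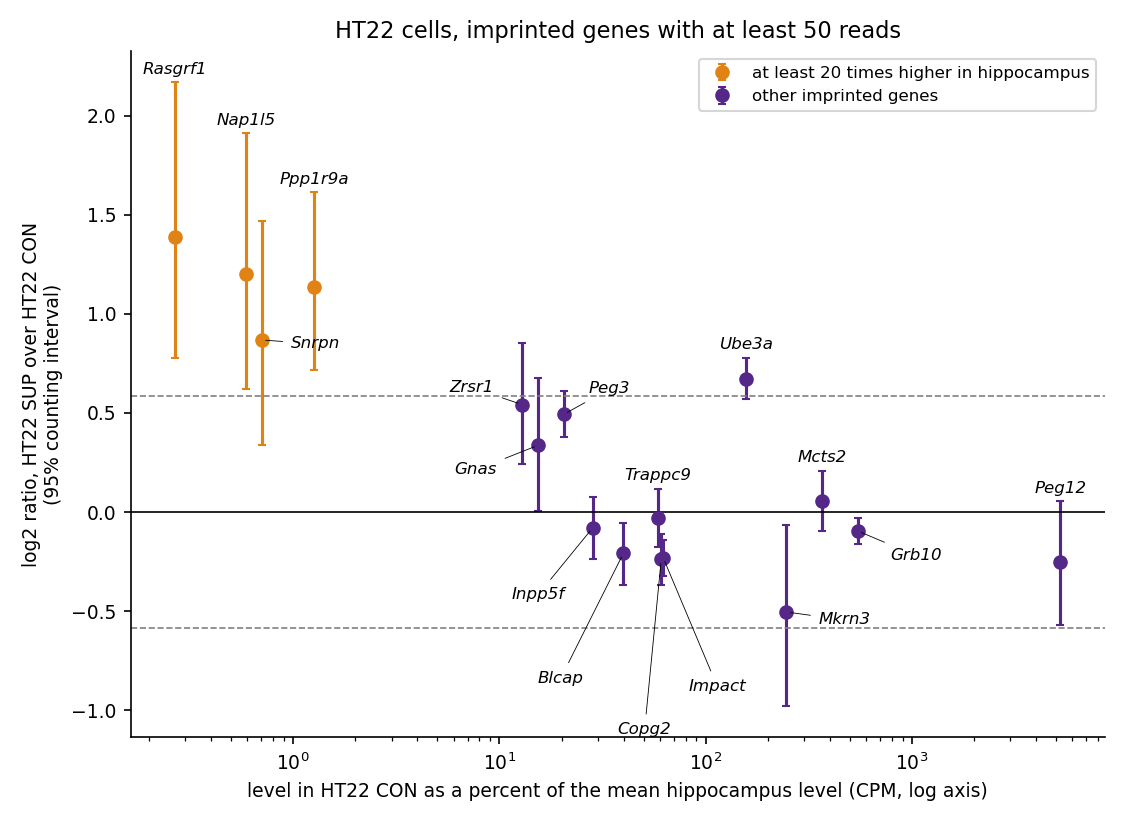
Log2 ratio of HT22 SUP over HT22 CON, with 95% counting intervals, for the 17 imprinted genes with at least 50 reads, against the level in HT22 CON as a percent of the mean hippocampus level on a log axis; dashed lines mark 1.5-fold. The 4 genes at the left, all below 2% of the hippocampus level, lie above the upper line, and of the other 13 Ube3a does.

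Ube3a was the imprinted gene beyond 1.5-fold in HT22 cells that is not of that class. It had 1562 reads in HT22 SUP and 1370 in HT22 CON, or 28.6 and 20.9 RPKM. The log2 ratio was 0.67 (0.57 to 0.78), and 0.71 (0.61 to 0.82) after the correction. The RPKM values, which are per uniquely mapped reads, differ by less than 1.5-fold, while the log2 ratio is scaled to reads in genes. Reads in genes were 63.1% of the uniquely mapped reads in HT22 SUP and 72.9% in HT22 CON. A scaling to mapped reads was not run. HT22 cells held more Ube3a than hippocampus, at 247% of the mean hippocampus level in HT22 SUP and 156% in HT22 CON. Its ratio was therefore above 0 both in hippocampus, at 0.54, and in HT22 cells, at 0.67, comparisons that share no library. Counting intervals excluded 0, on either side, in 39.7% of all measured genes in hippocampus and 55.1% in HT22 cells. The share of genes above 0 in both was not counted.

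Among genes short of 1.5-fold in HT22 cells, Zrsr1, a splicing factor retrogene, had 184 reads in HT22 SUP and 176 in HT22 CON, with 0.54 (0.24 to 0.85). After the correction it had 0.68 (0.38 to 0.99) and was beyond 1.5-fold. Peg3 had 1204 and 1196 reads in the same order and 0.49 (0.38 to 0.61), or 0.23 after the correction. Its intervals lay above 0 in hippocampus and in HT22 cells. Mkrn3 had 62 reads in HT22 SUP and 124 in HT22 CON. Its log2 ratio was -0.50 (-0.98 to -0.06), the lowest of the measured imprinted genes, and after the correction it was -0.39 (-0.87 to 0.05), an interval that includes 0. Peg12 had 139 and 232 reads and -0.25 (-0.57 to 0.05). Copg2, a coat protein gene, had 803 reads in HT22 SUP and 1326 in HT22 CON, with -0.24 (-0.37 to -0.11). Impact had 1622 and 2662 reads and -0.23 (-0.32 to -0.14), and Blcap had 549 and 888 reads and -0.21 (-0.37 to -0.05). The other 5 measured genes had log2 ratios between -0.10 for Grb10 and 0.34 for Gnas, whose count joins transcripts of both parental alleles.

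Genes that set or keep imprints were described from a list of 22, of which 16 were measured in hippocampus and 19 in HT22 cells. In hippocampus 1 was higher and 1 lower, against 1.8% and 0.904% of all measured genes, with a median of 0.03. Arid4b, a chromatin protein needed for the imprint of the Prader-Willi region in mouse, had 1923 reads in F1m-GCS and 1248 in F1m-CON and a log2 ratio of 0.68 (0.57 to 0.78). After the correction it had 0.44, short of 1.5-fold. The de novo methyltransferase gene Dnmt3b had 23 reads in F1m-GCS and 53 in F1m-CON and was lower at -1.09 (-1.92 to -0.42). It reached 50 reads in F1m-CON alone, the library in which it was high, so its place among the measured genes depended on that library. Zfp445, a zinc finger protein that keeps imprints, had 2419 and 1763 reads and 0.51 (0.42 to 0.60), and Atrx, a chromatin remodeller, had 0.58 (0.52 to 0.64). Zfp57, the reader of the hexamer above, had 510 reads in F1m-GCS and 396 in F1m-CON, with 0.42 (0.23 to 0.61), while its partner Trim28 had -0.05. The maintenance methyltransferase Dnmt1 had 0.02, or -0.06 after the correction.

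In HT22 cells 5 of the 19 control genes were higher in HT22 SUP and 0 lower, against 5.13% and 2.89% of all measured genes, with a median of 0.14. Arid4b had 1.09 (0.99 to 1.19), Atrx 1.02 (0.97 to 1.08), Zfp445 0.92 (0.72 to 1.12) and Arid4a, the relative of Arid4b, 0.84 (0.71 to 0.98). Dnmt3b was higher here, with 88 reads in HT22 SUP and 75 in HT22 CON and 0.70 (0.25 to 1.18). Zfp57 had -0.06, Dnmt1 0.15 and Trim28 0.00, and after the correction Zfp57 had 0.07, Dnmt1 -0.18 and Trim28 -0.01. Arid4a, Arid4b and Atrx have long coding sequences, and the longest of the 10 length groups had a median of 0.29 in HT22 cells. After the correction Arid4b had 0.85, Atrx 0.79 and Arid4a 0.60. Setdb1, another gene of the list, had 5339 reads in HT22 SUP and 9239 in HT22 CON. Its log2 ratio was -0.31 (-0.36 to -0.26). After the correction it was -0.59 (-0.64 to -0.55), which is lower by the rule.

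A further list of 31 genes reported as imprinted, of which 22 were measured in hippocampus, had 1 higher and 1 lower gene there, against 1.8% and 0.904% of all measured genes, and a median of 0.00. Dio3, the deiodinase gene at the far end of the cluster of Dlk1 and Rtl1, had 258 reads in F1m-GCS and 159 in F1m-CON, with 0.75 (0.46 to 1.05). Ddc, the decarboxylase of dopamine and serotonin synthesis and a neighbour of Grb10, had 203 and 324 reads in the same order and -0.62 (-0.88 to -0.36), or -0.58 after the correction, just short of 1.5-fold. Zdbf2 and Htr2a each had 0.50. In HT22 cells 13 were measured, with 0 higher and 2 lower, against 5.13% and 2.89% of all measured genes, and a median of -0.16. Igf2, the fetal growth factor, had 22 reads in HT22 SUP and 56 in HT22 CON, with -0.82 (-1.65 to -0.13), and passed the minimum through HT22 CON alone, where it was high. The matrix gene Dcn had 8371 and 18181 reads in the same order and -0.63 (-0.67 to -0.60), or -0.45 after the correction, short of 1.5-fold. Nap1l4 and Ago2 were short of 1.5-fold at -0.42 and 0.37. A list of 9 genes held hosts and neighbours of imprinted genes, and Mcts1 and Zrsr2, the X-linked genes of which Mcts2 and Zrsr1 are close copies. Of these, 8 were measured in hippocampus and 7 in HT22 cells, and 0 were higher or lower in either. The shares of all measured genes were 1.8% higher and 0.904% lower in hippocampus, and 5.13% and 2.89% in HT22 cells. Commd1, the host of Zrsr1, had the value farthest from 0 in hippocampus, at -0.30 (-0.53 to -0.08). In HT22 cells Herc3, the host of Nap1l5, had 0.57 and Casd1 had -0.38.

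The tissue and cell labels were set against marker lists. Pan-neuronal markers summed to 9684 CPM in F1m-GCS, 9734 CPM in F1m-CON, 204 CPM in HT22 SUP and 91.6 CPM in HT22 CON, so the HT22 libraries held these neuronal markers at a low level. Choroid plexus markers moved with the diet group, with a sum of 1605 CPM in F1m-GCS and 1882 CPM in F1m-CON, all 8 below 0 and 3 of them lower by the rule. Their part in the ratios of imprinted genes was not tested. Igf2, which the choroid plexus and meninges make in the adult brain, had 4151 reads in F1m-GCS and 4608 in F1m-CON and a log2 ratio of -0.10. Markers of hypothalamus, where Peg3, Magel2 and Dlk1 are strong, summed to 5.62 CPM in F1m-GCS and 5.42 CPM in F1m-CON, with 2 of 8 at 0 reads in each library.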

How the data were processed

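mRNA of 4 mouse samples, 1 per group, was sequenced from both fragment ends, per the labels' protocols. The series' design text gives the authors' steps as adapter and quality trimming (Trim Galore), alignment to mm10 by TopHat2 with at most 2 mismatches and a mapping quality of 4 or more, HTSeq counting of pairs, and edgeR. The submitters' processing notes also name CASAVA 1.8.

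Per the file headers and values, the deposited counts are whole, unscaled reads for each gene. The deposited RPKM columns are per kilobase of the listed length and per 1000000 uniquely mapped reads. The authors' log2 fold changes, log2 averages and p-values from edgeR stand in the deposited tables too and were not used.

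Counts were scaled with TMM (edgeR 4.0.16, R 4.3.3). Log2 ratios were fitted over the whole table with a prior count of 2, and intervals are exact conditional (Clopper-Pearson) 95% intervals that cover counting error only. An upper limit for 0 reads is 3 reads. With 1 library per group no test of conditions was possible. The functions were tested on simulated counts (Python 3.11.15, scipy 1.17.1). GC content came from GENCODE M21 for 21096 genes, 32 of the 33 members among them (Snrpn had none and was corrected for length alone). Motifs and CpGs were counted in RefSeq windows.

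The members and lists were chosen with earlier results of these data known. Every member is accounted for, and reads are given for those beyond 1.5-fold, the 5 highest and 5 lowest per comparison and their neighbours. From the lists of imprint control genes, other imprinted genes and host, flanking or copied genes, those beyond 1.5-fold and some of those farthest from 0 are named. Marker lists are given as sums and counts. Zfp57, Trim28, Dnmt1 and Igf2 in hippocampus, Setdb1 in HT22 cells, and the flanking genes, were named outside that rule after their values were seen. The alternatives were other scalings (DESeq2 1.42.0 size factors among them), prior counts, minimums, call rules and a correction for coding length (10 groups) and GC (5 groups). A minimum of 50 reads on average was added after the data were seen.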

Additional observations from a re-analysis of the deposited data

Results flagged for a closer look

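Dnmt3b, a de novo DNA methyltransferase gene, was beyond 1.5-fold in opposite directions in the comparisons, with a log2 ratio of -1.09 in hippocampus (23 reads in F1m-GCS and 53 in F1m-CON) and 0.70 in HT22 cells (88 reads in HT22 SUP and 75 in HT22 CON). In hippocampus the gene reached 50 reads in F1m-CON alone, where it was high. The difference between the comparisons was not tested, since each group held 1 library.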

How the results depend on the processing

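No paired analysis was possible because each group held 1 library. In hippocampus 2 imprinted genes were higher and 1 lower, and these counts were the same with total counts, DESeq2 size factors and prior counts of 0.25 and 10. With at least 200 reads 1 was higher and 0 lower, and with at least 10 reads or 1 read 3 were lower. With 2-fold or with the whole interval beyond 1.5-fold 0 were higher, and after the correction for coding length and GC 1 was, since Usp29 had 0.53. In HT22 cells the main count of 5 higher was 8 with at least 10 reads or 1 read, 1 with at least 200 reads, 3 with 2-fold, 3 with the whole interval beyond 1.5-fold, 3 with 50 reads on average and 1 without the class of 20 times more CPM in hippocampus. It was 6 after the correction, since Zrsr1 had 0.68. Over all genes in hippocampus, 241 higher and 121 lower became 417 and 242 with at least 10 reads, 433 and 263 with 1 read, 105 and 12 with 200 reads, 30 and 23 with 2-fold and 36 and 13 with the whole interval. In HT22 cells 557 higher became 1146, 1285, 267, 241 and 329 in the same order, and 345 without that class, and 314 lower became 131, 57 and 47 in the last 3 of these 5. By CPM, which takes no account of length, 2 of the 5 highest genes by RPKM in F1m-GCS and 3 of 5 in HT22 SUP were still among the 5 highest. No value beyond 1.5-fold changed sign under a setting that was run. Among printed values short of it, the correction turned the sign of Rasgrf1 in hippocampus (-0.06), of Dnmt1 in hippocampus (-0.06) and HT22 cells (-0.18), and of Zfp57 (0.07) and Trim28 (-0.01) in HT22 cells, and total counts that of Trim28 there (-0.01). The correction also ended the calls of Arid4b (0.44) and Ddc (-0.58) in hippocampus and of Dcn (-0.45) in HT22 cells. With it Setdb1 (-0.59) became lower by the rule in HT22 cells. Depth limits Zim1, Mkrn3 and the HT22 values of Rasgrf1, Nap1l5, Ppp1r9a and Snrpn, each with under 130 reads per library.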

Other observations

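A few imprinted genes under 50 reads in hippocampus had counting intervals that excluded 0. Peg12, an intronless paternally expressed gene next to Mkrn3, had 2 reads in F1m-GCS and 13 in F1m-CON. Ascl2, a transcription factor gene known from the placenta and from intestinal stem cells, had 4 and 14 reads in the same order. Ins2, an insulin gene next to Igf2, had 3 reads in F1m-GCS and 32 in F1m-CON and 0 reads in each HT22 library. All 3 were named after their values were seen, and the prior count weighs on any fold at such depth.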
